A study of Mus musculus with 9 samples.

Results

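Genes of 9 TRP (transient receptor potential) cation channels were examined in lumbar dorsal root ganglia, which hold the cell bodies of the sensory neurons of the lower body. The members were Trpv1, Trpv2, Trpa1, Trpm2, Trpm3, Trpm4, Trpm7, Trpm8 and Trpc1, chosen by symbol and found as 9 of the 55536 Ensembl identifiers in the count tables. Messenger RNA was sequenced in 9 libraries from adult C57Bl6 mice. In 5 of them Prdm12 is labelled as conditionally and inducibly knocked out (icKO), and the other 4 are labelled control, with the genotype given as wild type. Tissue was taken 1 month after tamoxifen, the drug that switches on an inducible recombinase. The comparison asked which of these channel genes differ after loss of Prdm12, a zinc finger regulator best known from the development of pain-sensing neurons. The labels name neither the recombinase line nor the deleted exon, and do not say whether the controls carry a floxed allele or a recombinase, so effects of such alleles and of Prdm12 loss cannot be told apart. Whether each library is a separate animal is not stated either, and p-values then reflect only library-to-library spread, some of which may be technical.

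TRP channels are tetramers of subunits that open to temperature, chemical ligands or lipid signals and let cations into the cell. In dorsal root ganglia several of them turn heat, cold or irritants into electrical signals, and each is carried by particular classes of neuron. Trpv1 encodes the receptor for capsaicin and noxious heat, Trpa1 the receptor for mustard oil and other reactive irritants, and Trpm8 the receptor for cool temperature and menthol. Trpm3 responds to the steroid pregnenolone sulphate and to heat, and Trpm2 is opened by ADP-ribose and has been linked to the sensing of warmth. The others are more widely expressed: Trpv2 is a relative of Trpv1 found in larger sensory neurons and in immune cells, Trpm4 is a calcium-activated channel for monovalent cations, Trpm7 is a channel fused to a kinase, and Trpc1 belongs to the canonical subfamily.

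Library totals were 19607740 to 29481589 counts, and each member had at least 707 counts in every library. Prdm12 was at 22.3 to 26.2 CPM (counts scaled to library size with TMM factors) in icKO and 116 to 163 CPM in control, a log2 fold change of -2.48 (SE 0.09), so the libraries matched their labels. Markers of sensory neurons and of neurons in general were present in all libraries, with summed levels of 5634 to 6433 CPM in icKO and 5489 to 6464 CPM in control for 8 sensory neuron genes. With an edgeR adjusted p under 0.05 as threshold, 7 of these 8 did not pass and Ntrk3 was higher in icKO. Over all genes, 0.475% were higher and 0.377% lower at this threshold. Ntrk3, the neurotrophin-3 receptor gene of proprioceptive and other large sensory neurons, was at 499 to 550 CPM in icKO against 309 to 468 CPM in control. Its log2 fold change was 0.49 (SE 0.10, edgeR adjusted p = 0.0342). The part of Ntrk3 in the results below was not tested. Control 4 stood apart in spinal cord markers, at 76.98 summed CPM over 7 genes against 24.1 to 29.5 in the other 8 libraries, with the astrocyte gene Gfap at 29.7 CPM and the oligodendrocyte gene Mog at 4 counts. Skeletal muscle markers were highest in control 2, at 47.9 summed CPM over 5 genes, and icKO 1, at 30.4 CPM. Y-linked counts split the libraries into 4 high ones (icKO 1 and 2, control 1 and 3) and 5 low ones. The high ones were at 98.1 to 165 summed CPM over 4 genes. Of the low ones, icKO 4 was at 3.58 CPM and the others at 0.104 to 0.670 CPM. The X-inactivation gene Xist was at 0.775 to 1.14 CPM in the high Y-linked libraries and 310 to 389 CPM in the low ones, with icKO 4 the highest. The source of the Y-linked counts in icKO 4 was not tested. The sex of the animals is not labelled.

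Trpm8, the cold and menthol receptor, was the single member that passed the test, and it was lower in icKO. The heat, capsaicin and irritant receptor genes Trpv1 and Trpa1, together with Trpv2, Trpm3, Trpm4, Trpm7 and Trpc1, gave log2 fold changes between -0.04 and 0.09 and did not pass. Trpm2 lay lower in every icKO library than in any control library, without passing. With an adjusted p (edgeR quasi-likelihood, Benjamini-Hochberg over 17258 genes) under 0.05 as threshold, 1 of 9 members was lower, 0 were higher and 8 did not pass. At this threshold 0.377% of all genes were lower, 0.475% higher and 0.852% either. Before adjustment, 2 members were lower and 0 higher with p under 0.05, against 6.26% and 4.85% of all genes. The groups did not overlap in CPM for 2 members, both with icKO below, against 4.5% of all genes in either direction, 2.34% with icKO below and 2.16% with icKO above. The median log2 fold change was -0.01 for the 9 members and close to it, at -0.0008, for all genes. All 9 members passed the filter on low counts.

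**Figure D1:**
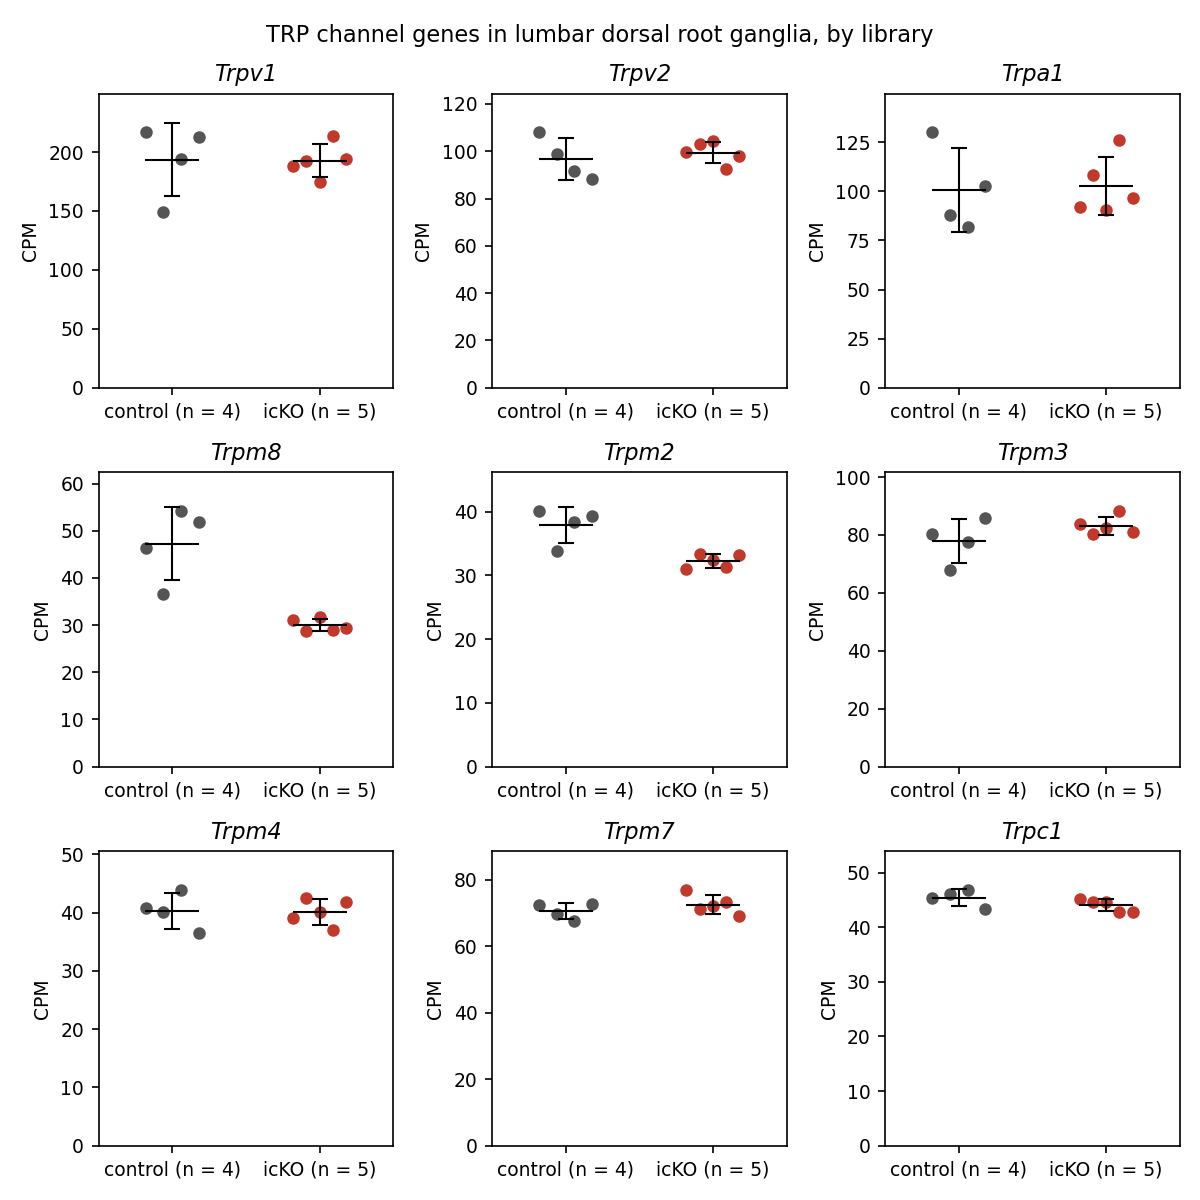
CPM of each of the 9 TRP channel genes (vertical axes from 0) in the 4 control and 5 icKO libraries, with points for libraries and bars for the mean ± SD. For Trpm8 every icKO library, at 28.9 to 31.8 CPM, lies below every control library, at 36.7 to 54.2 CPM, and Trpm2 shows the same order with a smaller gap, while the groups overlap in the other 7 panels.

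Trpm8 (ENSMUSG00000036251) lies on the plus strand of chromosome 1 from 88277661 to 88389293 of mm10, with 3 protein-coding transcripts. Its level was 46.4, 36.7, 54.2 and 51.8 CPM in control replicates 1 to 4. In icKO replicates 1 to 5 it was 31.1, 28.9, 31.8, 29.1 and 29.3 CPM. The icKO values were tightly grouped and all below the lowest control library, control 2. Control averaged 47.3 ± 7.78 CPM (SD, n = 4) and icKO 30.01 ± 1.31 CPM (SD, n = 5), which is 63.4% of the control level. The log2 fold change was -0.66 (SE 0.10, 95% interval -0.86 to -0.45), and the adjusted p was 0.00559 (edgeR). They rest on 707 to 923 raw counts in icKO and 899 to 1488 in control. In bulk tissue, fewer Trpm8 neurons and less Trpm8 RNA per neuron cannot be told apart. The antisense gene 4930453O03Rik shares 388 exonic bases with Trpm8 but held 5 counts over all 9 libraries.

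Trpm8 was lower in icKO than in control libraries of either Y-linked class, in fits chosen after seeing the data. Among the 4 libraries with high Y-linked counts, control 1 and 3 were at 46.4 and 54.2 CPM and icKO 1 and 2 at 31.1 and 28.9 CPM, a log2 change of -0.74 (SE 0.10, adjusted p = 0.171 in a fit of those libraries alone). Among the 5 with low Y-linked counts, control 2 and 4 were at 36.7 and 51.8 CPM and icKO 3, 4 and 5 at 31.8, 29.1 and 29.3 CPM, a log2 change of -0.56 (SE 0.14, adjusted p = 0.354). Neither small fit called Trpm8, although the groups did not overlap in either. The difference between the classes, tested as an interaction, was -0.19 (SE 0.20, edgeR unadjusted p = 0.346), and 0 of all tested genes passed that test. With so few libraries in each class, it cannot tell whether the Trpm8 change depends on the class. Leaving out control 4, with its spinal cord markers, gave a log2 change of -0.61 (adjusted p = 0.0206), and leaving out control 2, with the most muscle RNA and the lowest control Trpm8, gave -0.76 (adjusted p = 0.000357).

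Ratios of Trpm8 to other RNA of the same library are given as a description, since they were chosen with the Trpm8 result known. Trpm8 counts were 21.4, 24.6, 27.9 and 24.4% of Trpv1 counts in control replicates 1 to 4. In icKO replicates 1 to 5 they were 16.5, 14.97, 18.2, 13.6 and 15.1%. The ratio thus differed without overlap, at 24.5 ± 2.66% (SD, n = 4) against 15.7 ± 1.74% (SD, n = 5), a log2 difference of -0.65. Against the summed counts of 10 pan-neuronal genes, Trpm8 was at 0.327 to 0.515% in control and 0.248 to 0.303% in icKO, a log2 difference of -0.61. The pan-neuronal genes themselves had summed levels of 10074 to 11626 CPM in control and 10090 to 11612 CPM in icKO. Of these 10 genes 0 passed (0.852% over all genes).

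Sequences before the RefSeq starts are shown for Trpm8, which fell, for Trpm2, the other member whose groups did not overlap, and for Trpv1, whose levels overlapped. They were taken from RefSeq (GRCm38.p6, the mm10 assembly), which has an entry for 7 of the 9 members, and run 5′ to 3′ on the gene's own strand. Capitals mark TATAAA, the core of the TATA box, and TGTGGT, a core of the sequence bound by RUNX factors, searched on both strands. Trpm8 is shown at chr1:88306485-88306661 (plus strand), which ends 74 bases before the RefSeq start because an annotated exon of another transcript begins there. Trpm2 is shown at chr10:77969873-77970122 (minus strand) and Trpv1 at chr11:73233899-73234148 (plus strand), both the full 250 bases before the start. By the gene positions given in this text, the Trpm8 and Trpm2 stretches lie inside the gene. The outermost annotated starts are at 88277661 for Trpm8 and 77970563 for Trpm2, and the bases before those starts are not shown.
Trpm8: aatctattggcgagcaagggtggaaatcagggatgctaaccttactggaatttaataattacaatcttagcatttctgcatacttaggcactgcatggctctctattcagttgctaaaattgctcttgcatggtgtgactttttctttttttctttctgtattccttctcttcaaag
Trpm2: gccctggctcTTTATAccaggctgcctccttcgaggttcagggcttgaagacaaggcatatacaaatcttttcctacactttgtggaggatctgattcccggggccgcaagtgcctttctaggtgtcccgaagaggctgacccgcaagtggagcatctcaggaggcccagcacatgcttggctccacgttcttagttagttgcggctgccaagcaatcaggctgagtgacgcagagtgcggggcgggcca
Trpv1: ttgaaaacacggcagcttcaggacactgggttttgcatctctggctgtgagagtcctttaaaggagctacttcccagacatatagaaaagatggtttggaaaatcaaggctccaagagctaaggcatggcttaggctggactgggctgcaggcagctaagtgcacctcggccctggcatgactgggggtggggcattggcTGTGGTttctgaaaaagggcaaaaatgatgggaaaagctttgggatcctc
The full 250-base Trpm8 window holds TATAAA at 30 to 25 bases before the start, inside that exon and so not shown. Trpm2 holds it on the opposite strand, read as TTTATA, 240 to 235 bases before the start, and Trpv1 holds TGTGGT 50 to 45 bases before the start. Of 32851 RefSeq windows of the same length, 12.4% hold TATAAA and 14.0% hold TGTGGT. The looser motif CANNTG, the E-box, is in 66.2% of all windows, 1 time in the Trpm8 window, 3 times in that of Trpm2 and 0 times in that of Trpv1. The Trpm8 window has 1 CG dinucleotide and 42.8% G and C, that of Trpm2 has 10 and 56.8%, and that of Trpv1 has 2 and 50.8%, against a median of 6 CG dinucleotides over all windows. These matches describe the letters in these windows only.

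Trpv1 (ENSMUSG00000005952, chromosome 11 from 73234292 to 73261242, plus strand) did not pass. Its level was 217, 149, 194 and 213 CPM in control replicates 1 to 4 and 188, 193, 175, 214 and 194 CPM in icKO replicates 1 to 5. All icKO libraries fell inside the control range, which control 2 extended downward. The means were 193 ± 30.97 CPM (SD, n = 4) and 193 ± 14.1 CPM (SD, n = 5), a log2 change of -0.01 (SE 0.10, adjusted p = 0.992). The 95% interval, -0.22 to 0.21, corresponds to 0.857 to 1.16 times the control level, so a fall of the size seen for Trpm8 lies outside it. The sign of this small value changed with the scaling: it was 0.0103 with library size alone and 0.023 with pan-neuronal scaling.

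Trpa1 (ENSMUSG00000032769, chromosome 1 from 14872648 to 14918862, minus strand) had the widest spread of the members. Control replicates 1 to 4 were at 130, 87.9, 82.1 and 103 CPM and icKO replicates 1 to 5 at 91.9, 108, 90.7, 126 and 96.5 CPM. Control 1 and icKO 4 were the high libraries, 1 in each group, and the groups overlapped. The log2 fold change was 0.03 (SE 0.13, 95% interval -0.26 to 0.32, adjusted p = 0.974). Its coefficient of variation was 21.4% in control and 14.5% in icKO, against 3.39% and 2.51% for Trpc1.

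Trpm3 (ENSMUSG00000052387, chromosome 19 from 22139046 to 22995410, plus strand), the pregnenolone sulphate and heat channel gene, is the longest of the genes and has 17 protein-coding transcripts. It was at 80.4, 67.9, 77.7 and 85.9 CPM in control replicates 1 to 4 and 83.8, 80.3, 82.3, 88.3 and 80.9 CPM in icKO replicates 1 to 5. The groups overlapped, with control 2 again the lowest library. The log2 fold change was 0.09 (SE 0.07, 95% interval -0.05 to 0.24, adjusted p = 0.684). Counting was per gene, so transcripts with different starts could not be told apart. The antisense gene Gm27151 shares 277 exonic bases with Trpm3 and held 409 counts over all 9 libraries, against 1662 to 2492 counts for Trpm3 in each library.

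Trpm2 (ENSMUSG00000009292, chromosome 10 from 77907722 to 77970563, minus strand), the ADP-ribose-gated channel gene, was lower in icKO by a smaller amount than Trpm8. Control replicates 1 to 4 were at 40.1, 33.8, 38.3 and 39.3 CPM and icKO replicates 1 to 5 at 30.95, 33.4, 32.4, 31.4 and 33.2 CPM. The groups did not overlap, though the highest icKO library lay just under control 2. The log2 fold change was -0.23 (SE 0.06, 95% interval -0.36 to -0.10), with an unadjusted p of 0.00213 from edgeR's model across all genes and an adjusted p of 0.112, so it did not pass. DESeq2 called it with an adjusted p of 0.0344, and edgeR's test called it without control 2, at -0.28 with an adjusted p of 0.0334. It was not called under 8 other settings or in 8 other fits without 1 library. There edgeR adjusted p-values reached 0.473, with pan-neuronal scaling. Trpm2 and Trpv2 are also known from macrophages. The 8 macrophage markers had summed levels of 108 to 169 CPM in icKO and 83.5 to 179 CPM in control. Of these markers 0 passed (0.852% over all genes), and their part in the Trpm2 values was not tested.

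**Figure D2:**
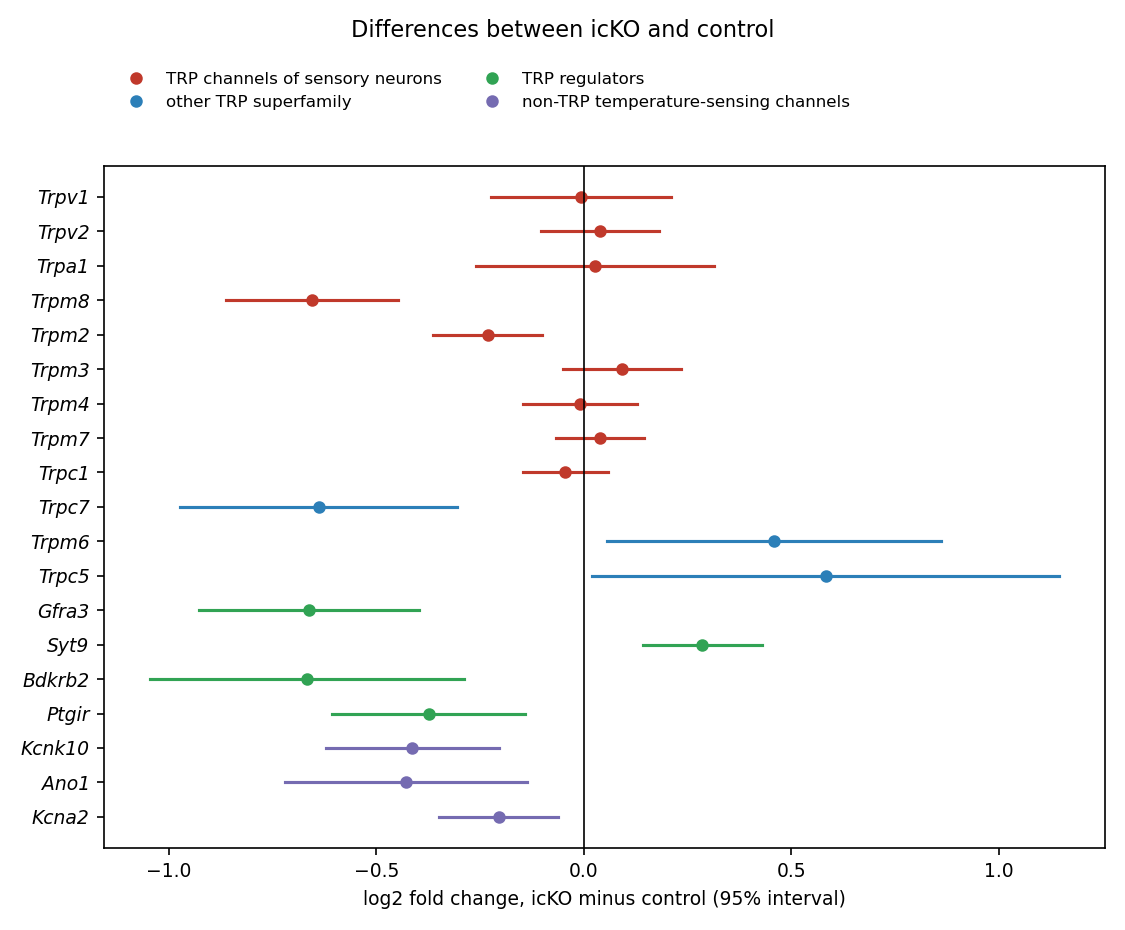
Log2 fold changes, icKO minus control, with 95% intervals (horizontal axis) for the 9 TRP channel genes and the 10 named genes of the related lists (vertical axis, colours by list). Trpm8 at -0.66 and Trpm2 at -0.23 have intervals below 0, and the intervals of the other 7 TRP channel genes include 0. The 10 named genes were picked for small p within their lists. That choice favours intervals apart from 0, as all 10 have, and they do not stand for their lists.

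The 4 remaining members gave narrow intervals around 0. Trpv2 (ENSMUSG00000018507, chromosome 11 from 62574486 to 62600515, plus strand) was at 88.5 to 108 CPM in control and 92.5 to 104 CPM in icKO, with a log2 fold change of 0.04 (SE 0.07, 95% interval -0.10 to 0.18). Trpm7 (ENSMUSG00000027365, chromosome 2 from 126791565 to 126876230, minus strand), the channel and kinase gene, was at 67.6 to 72.8 CPM in control and 69.02 to 76.9 CPM in icKO, with a log2 fold change of 0.04 (SE 0.05, 95% interval -0.07 to 0.14). Both genes overlapped between the groups, with icKO 1 the highest library for Trpm7. Trpm4 (ENSMUSG00000038260, chromosome 7 from 45302632 to 45333780, minus strand) was at 36.4 to 43.9 CPM in control and 37.05 to 42.5 CPM in icKO, with a log2 fold change of -0.01 (SE 0.06, 95% interval -0.15 to 0.13). Trpc1 (ENSMUSG00000032839, chromosome 9 from 95705082 to 95750375, minus strand) was at 43.3 to 46.8 CPM in control and 42.8 to 45.1 CPM in icKO, with a log2 fold change of -0.04 (SE 0.05, 95% interval -0.15 to 0.06). Adjusted p-values of the 4 genes were 0.807 to 0.981 (edgeR). The Trpm4 value, so near 0, changed sign with the scaling: it was 0.0047 with library size alone and 0.023 with pan-neuronal scaling.

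Levels of different genes were compared per kilobase of annotated exon. Trpv1 had the highest level in control, at 52.6 ± 8.41 CPM per kb (SD, n = 4), which was 2.22 times that of the next member and 40.5% of the summed level of the 9. Trpa1 followed at 23.6 ± 5.06 CPM per kb and Trpv2 at 21.6 ± 1.95 CPM per kb, and the ranges of these neighbours overlapped. Trpm8 came after them, at 9.996 ± 1.64 CPM per kb, clear of its neighbours on both sides by this length. Below it were Trpm7 at 6.24 ± 0.214 and Trpc1 at 5.65 ± 0.191 CPM per kb, whose ranges did not overlap. Trpm4 at 3.73 ± 0.284, Trpm3 at 3.19 ± 0.310 and Trpm2 at 3.04 ± 0.224 CPM per kb closed the order, with ranges that overlapped from each to the next. In icKO, Trpm8 fell to 6.34 ± 0.277 CPM per kb (SD, n = 5) and below Trpm7 in the order, with a range of 6.10 to 6.71 that overlapped that of Trpm7, 6.10 to 6.80. The order depends on the length used: over the longest protein-coding transcript the mean of Trpv2 was above that of Trpa1 in control, and Trpm8 in control, at 8.85 to 13.1, overlapped Trpc1, at 9.49 to 10.3 CPM per kb. Trpc1 was then above Trpm7 with overlapping ranges, and the mean of Trpm8 was at 11.4 in control and 7.24 CPM per kb in icKO, where it ranked below Trpm7, Trpc1 and Trpm4.

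**Figure D3:**
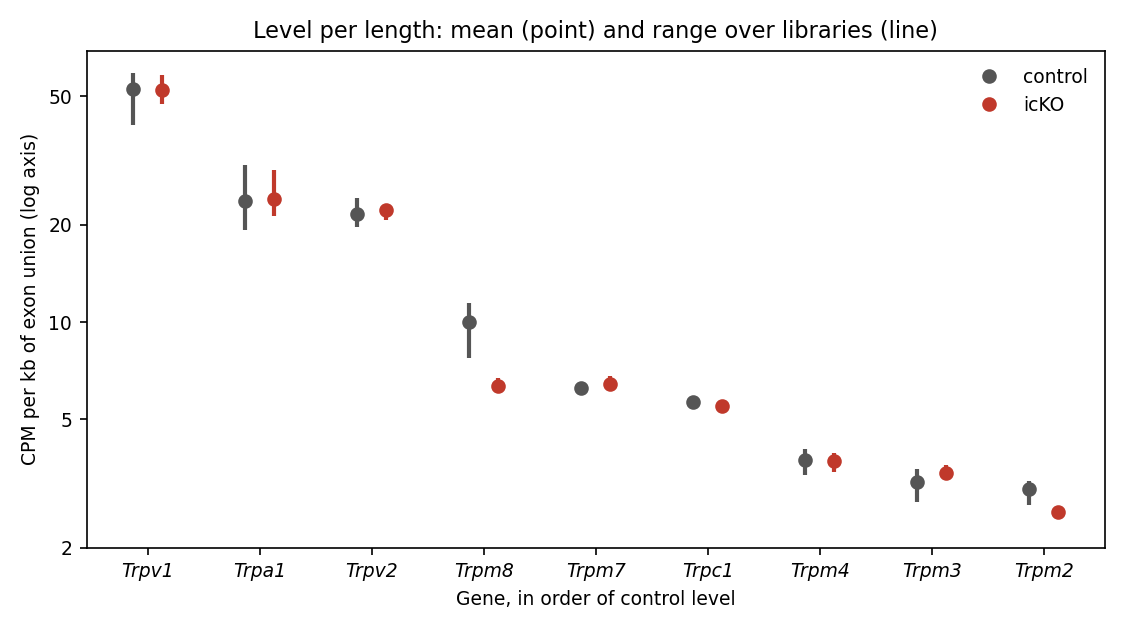
Level per kilobase of exon (log axis) of the 9 TRP channel genes, in order of their control level, with points for group means and lines for the range over 4 control and 5 icKO libraries. Trpv1 is highest in both groups at 52.6 and 52.3 CPM per kb, and Trpm8 moves from 9.996 in control to 6.34 in icKO, level with Trpm7.

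Other members of the TRP superfamily were read from a list of 18 genes, of which 12 had enough counts to be tested. Of these 0 passed, where 0.852% of all genes passed in either direction. Before adjustment, p was under 0.05 for 2 higher genes and 1 lower gene (4.85% and 6.26% over all genes). The median log2 fold change was -0.01. The groups did not overlap for 1 gene (4.5% over all genes). Trpc7, a canonical channel gene, was at 3.82 ± 0.192 CPM in control and 2.45 ± 0.489 CPM in icKO, without overlap, at -0.64 (SE 0.15, adjusted p = 0.0813). It was called by DESeq2, with an adjusted p of 0.0176. It was not called under 8 other settings or in any fit without 1 library, with edgeR adjusted p-values up to 0.239. The kinase-linked magnesium channel gene Trpm6, at 0.46 (SE 0.19, adjusted p = 0.366), and Trpc5, at 0.58 (SE 0.26, adjusted p = 0.427), overlapped between the groups. Without 1 library Trpc5 ranged from 0.38 (without control 2, edgeR adjusted p = 0.479) to 0.78 (without control 4, 0.244). Trpm6 was at 0.11 among high Y-linked libraries (edgeR adjusted p = 0.925) and at 0.65 among low ones (0.675). The 6 genes left out were Mcoln3, Pkd2l1, Trpc2, Trpm1, Trpm5 and Trpv5, each with 7 or fewer counts in any library. Trpc2 had 0 counts in all libraries, where 3 counts equal 0.102 to 0.153 CPM, a limit that covers counting error only.

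Among 28 genes of proteins that regulate TRP channels, 1 fell, 0 rose and 27 did not pass. Over all genes, 0.377% fell and 0.475% rose. Before adjustment, p was under 0.05 for 5 lower genes and 1 higher gene (6.26% and 4.85% over all genes). The groups did not overlap for 5 genes (4.5% over all genes). The log2 fold change was negative for 20 and positive for 8 (49.8% positive over all genes), with a median of -0.06. Gfra3, the co-receptor for artemin, a growth factor that sensitizes TRP channels, was at 50.2 to 83.8 CPM in control and 38.6 to 49.2 CPM in icKO, at -0.66 (SE 0.12, adjusted p = 0.0252). The Gfra3 call was lost, with adjusted p-values of 0.0539 to 0.0761, when any single library other than icKO 2 or control 2 was left out, and with the replicate block (adjusted p = 0.137). Syt9, a synaptotagmin implicated in delivery of Trpv1 to the membrane, was at 0.29 (SE 0.07, adjusted p = 0.0724), with every icKO library above every control library. It passed by DESeq2 (0.00276), without the count filter (0.0223), with library size alone (0.0362) and without control 1 (0.049). It did not pass under 6 other settings or in 8 other fits without 1 library, with edgeR adjusted p-values up to 0.276. The bradykinin receptor gene Bdkrb2 at -0.67 (SE 0.17, adjusted p = 0.113) and the prostacyclin receptor gene Ptgir at -0.37 (SE 0.11, adjusted p = 0.157) did not pass. DESeq2 called both, with adjusted p-values of 0.0184 and 0.0429, as did the fit without the count filter, with 0.0284 and 0.0246. Neither was called under 7 other settings or in any fit without 1 library, with edgeR adjusted p-values up to 0.407 and 0.449. Without control 1, its highest library, Ptgir was at -0.24 (adjusted p = 0.273). The direct partners Pirt, which binds Trpv1 and Trpm8, and Tmem100, which links Trpa1 to Trpv1, were at -0.05 (SE 0.08) and -0.02 (SE 0.11). They were named after their values were seen.

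Temperature sensing also rests on channels outside the TRP family, such as background potassium channels and the heat-activated chloride channel. Of 13 such genes 0 passed, where 0.852% of all genes passed in either direction. Before adjustment, p was under 0.05 for 5 lower genes and 0 higher ones (6.26% and 4.85% over all genes). The groups did not overlap for 1 gene (4.5% over all genes). The log2 fold change was negative for 10 and positive for 3 (49.8% positive over all genes), with a median of -0.14. Kcnk10, a background potassium channel gene, was at 14.6 to 18.8 CPM in control and 11.2 to 13.8 CPM in icKO, at -0.41 (SE 0.10, adjusted p = 0.0715). It passed with a term for the Y-linked class (adjusted p = 0.018), without the count filter (0.0352) and by DESeq2 (0.0068). It did not pass under 6 other settings or in any fit without 1 library, with edgeR adjusted p-values up to 0.22. Ano1, the calcium-activated and heat-activated chloride channel gene, was at -0.43 (SE 0.13, adjusted p = 0.211). Kcna2, a potassium channel gene whose current acts as a brake in cold-sensing neurons, was at -0.21 (SE 0.07, adjusted p = 0.22). Without control 2, the lowest control library at 460 CPM, Kcna2 passed at -0.27 (adjusted p = 0.0243). It did not pass in 8 other fits without 1 library or under 9 other settings.

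Genes with the pattern most like that of 3 members over the 9 libraries were ranked by Pearson r of log2 CPM among 13420 protein-coding genes. For Trpm8 they were Acsf3, Col4a3, Camk1g, Siah3 and Slc24a2, with r of 0.949 to 0.957, and 0.689 to 0.93 after each group's mean was removed. Siah3 was the gene of the 5 that also passed the comparison, at -0.73 (adjusted p = 0.00182). Among the other members, Trpm2 came closest to Trpm8, with r of 0.913 and rank 24, and 0.645 after the group means were removed, where Trpm3 was higher, at 0.723. For Trpv1 the closest were Trip12, Clic5, Greb1l, Frmd4a and Usp34, with r of 0.901 to 0.931, which fell to 0.678 to 0.777 without the 2 libraries farthest from the Trpv1 median. Trpm3 followed Trpv1 with r of 0.793 at rank 86. For Trpa1 they were Amigo2, Nfil3, Clasp2, Canx and Spred3, with r of 0.918 to 0.971, and Trpv1 had r of 0.677 at rank 184. These are descriptions over 9 points that share library depth, dissection and cell make-up, and for Trpm8 also the group difference.

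**Figure D4:**
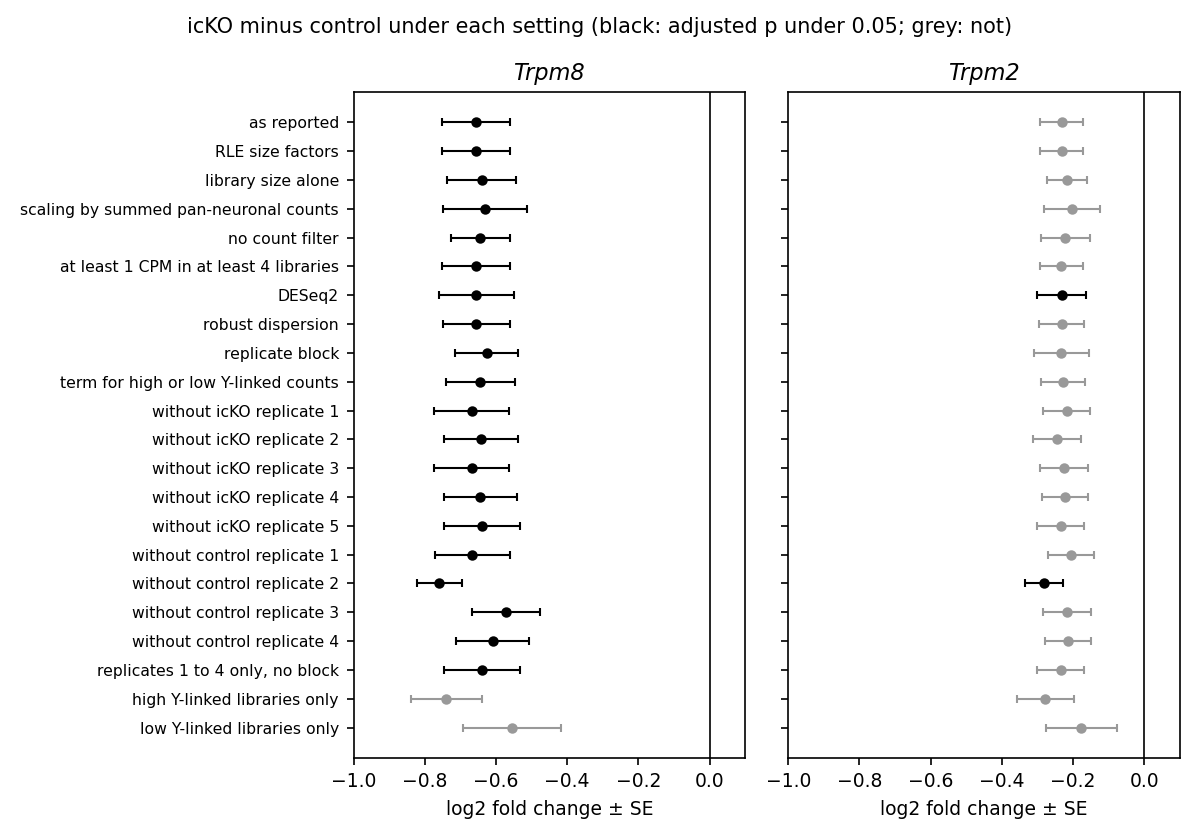
Log2 fold changes, icKO minus control, of Trpm8 (left) and Trpm2 (right) with SE (horizontal axes) under each processing setting and with single libraries left out (vertical axis), black where the adjusted p was under 0.05. Trpm8 lies between -0.76 and -0.56 throughout and is grey in the 2 fits restricted by Y-linked counts, while Trpm2 is black under DESeq2 and without control 2.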

How the data were processed

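The authors deposited 1 table of raw read counts per gene for each library. Per the submitters' processing notes, the genome build is mm10. The tools listed there are featureCounts 1.5.0-p1, STAR 2.5.2a and bcl2fastq 2.20.0.422. For annotation release, strand setting and multi-mapping reads the choice is not given in the sources used here, so sense and antisense reads could not be separated. Symbols, positions and exon lengths came from GENCODE M21 on the same build, which held all 55536 identifiers.

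Genes were filtered with filterByExpr by group (minimum count 10, minimum total 15), scaled with TMM factors and compared with the quasi-likelihood test of edgeR 4.0.16 in R 4.3.3, fitted on all 17258 genes that passed. Each SE was taken as the size of the log2 value over the root of its F statistic. Alternatives, DESeq2 1.42.0 among them, are given in the closing section. The procedure was tested on simulated data with independent draws for each library. Those data held no differences in dissection, cell make-up or sex, so that test does not bear on them. Log2 CPM for pattern likeness used a prior count of 2 and genes with a mean of at least 1 CPM.

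The members and lists were chosen with earlier results of these data known. Results for 2 genes of the related lists are not reported here. Named from the related lists were all genes past the threshold of 0.05 and the 3 others with the smallest p. Same-numbered libraries did not deviate together, so the numbers were not treated as pairs.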

Additional observations from a re-analysis of the deposited data

Results flagged for a closer look

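Of 70 groups of libraries examined for a single library far from the rest, 7 had one, and chance gives about 1 in 20. No member gave such a library. Ptgir was at 102.6 CPM in control 1 against 71.8 to 74.7 CPM in the other control libraries. Kcna2 was at 460.1 CPM in control 2 against 557.9 to 570.1 CPM in the others. The 18 listed other TRP genes summed to 162.7 CPM in icKO 2 against 172.6 to 174.9 CPM in the other icKO libraries. Summed marker levels stood apart for endothelial and mural cells in icKO 4, at 360.5 CPM against 274.4 to 293.3 CPM, and for fibroblasts and meninges in control 1, at 501.3 CPM against 1019 to 1112 CPM. They also stood apart for spinal cord in control 4, at 76.98 CPM against 24.1 to 29.5 CPM, and for skeletal muscle in icKO 1, at 30.45 CPM against 4.04 to 5.69 CPM. The part of these libraries in the Ptgir and Kcna2 values was not tested beyond leaving each library out: without control 1 Ptgir was at -0.24, and without control 2 Kcna2 was at -0.27.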

How the results depend on the processing

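Trpm8 was lower and called in all 9 fits without 1 library, with log2 fold changes of -0.76 to -0.57, and under all 9 other settings tried, at -0.66 to -0.63 with adjusted p-values up to 0.0379. These were RLE size factors, library size alone, pan-neuronal scaling, no filter, at least 1 CPM in 4 libraries, DESeq2, robust dispersion, the replicate block and a term for the Y-linked class. In fits chosen after seeing the data it was not called among high Y-linked libraries (-0.74) or low ones (-0.56), where fewer libraries entered. The number of members lower was 2 with DESeq2, 1 to 2 without 1 library, and 0 in either Y-linked fit. The number higher was 0 throughout.

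With the replicate block the Trpm8 value was -0.63 (adjusted p = 0.0326), and calls over all genes fell from 82 higher and 65 lower to 28 and 20, against 57 and 38 for the same 8 libraries without the block. Deviations of same-numbered libraries correlated at 0.103, -0.175, -0.044 and 0.17. As block differences, the ratio of Trpm8 to Trpv1 was -0.64 and to pan-neuronal genes -0.61. Without 1 library the ratios ranged from -0.71 to -0.58 and from -0.74 to -0.52.

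Values near 0 changed sign. Trpv1 was 0.0103 with library size alone, 0.023 with pan-neuronal scaling, 0.0046 without the filter, 0.0101 with the replicate block, 0.0029 with the Y-linked term, 0.1002 in low Y-linked libraries and -0.1114 to 0.0522 without 1 library. Trpm4 was 0.0047, 0.023, 0.0016 and 0.0013 under the same settings apart from the block, 0.0503 in low Y-linked libraries and -0.0526 to 0.044 without 1 library. Trpa1 was -0.0757 in high Y-linked libraries and -0.0566 to 0.1744 without 1 library.

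Over the longest coding transcript, control levels per kb were 33.3 for Trpv2, 5.21 for Trpm2, 6.34 for Trpm3, 9.53 for Trpm4, 9.94 for Trpm7 and 9.96 for Trpc1. Calls over all genes were 172 higher and 221 lower without the filter and 198 and 238 with DESeq2. The share higher was 43.8% and 45.4% there and 55.8% as reported. Without 1 library the calls were 45 to 85 higher and 33 to 90 lower.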
